A study of Mus musculus with 6 samples.

Results

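Orthotopic tumours grown from UN-KC-6141 cells, called UNKC tumours here, were compared with normal mouse pancreas across all measured genes. The comparison used 4 of the 6 RNA libraries of the study: 2 UNKC tumours and 2 normal whole pancreases, chosen by their group labels alone. UN-KC-6141 is a single mouse pancreatic carcinoma line. Its cells were placed by surgery in the pancreas of C57BL/6 mice, and tumours were taken after 20 days. The normal organ also came from C57BL/6 mice, and no mouse was treated. Age, sex and whether replicates were separate mice are not given in the sources used here, so p-values measure the spread between these libraries, which may be technical. The tumours were sequenced whole, so each library mixes the injected cells with the stroma, vessels, immune cells and pancreas of the host. The other 2 libraries, from PANC02-H7 (H7) tumours, served only for a direct contrast between tumour lines. By its title the study asked how WDR5, a subunit of enzymes that methylate lysine 4 of histone H3, bears on osteopontin and on the immune checkpoint ligand PD-L1.

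The bulk of a normal pancreas is acinar cells, which make and store digestive enzymes. Their gene programme depends on the PTF1 complex at enzyme gene promoters, in which PTF1A pairs with an E protein and RBPJ-like protein (RBPJL) joins them. Pancreatic ductal carcinomas commonly have active ERK kinase signalling and are known for keratin-positive cells, a dense collagen matrix and many macrophages. In mouse models, acinar cells can lose enzyme genes and take on duct genes before tumours form.

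The UNKC libraries held 40507546 and 38728423 reads counted in genes and the normal libraries 12077320 and 8204225. Ribosomal RNA, which was set aside, took 21.2% and 20.1% of the UNKC reads but 86.4% and 85.0% of the normal reads. This left 31909144 and 30957738 UNKC reads against 1648037 and 1226827 normal reads. Of the reads left in normal replicate 1, 41.6% lay in Lars2, against 0.849% in normal replicate 2, where 42.3% lay in gene IDs without a name (11.4% in normal replicate 1). The median tested gene was covered by 704 and 679 UNKC reads but by only 12 and 13 normal reads. The log2 levels of all tested genes correlated across genes at r = 0.960 between the UNKC replicates and at 0.781 between the normal replicates, and genes are not independent replicates. UNKC replicate 2 stood apart by skeletal muscle transcripts: titin (Ttn), the giant muscle spring protein, had 4.92 and 7602 CPM in the UNKC libraries and 154 and 115 in the normal libraries. CPM are counts scaled to the size of the library without ribosomal RNA.

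Of 15453 genes tested with edgeR's quasi-likelihood model, 3940 were higher in UNKC tumours (25.5%) and 2987 were lower (19.3%) at a Benjamini-Hochberg adjusted p under 0.05, so 44.8% were called in either direction. The normal pancreas had no read of 856 tested genes, of which 236 were called higher. Among called genes 1932 were over 4-fold higher and 1622 over 4-fold lower, and the smallest change called was 0.49 on the log2 scale. The median log2 fold change of all tested genes was 0.30, and the groups did not overlap, with UNKC above, in 46.0% of genes and, with UNKC below, in 31.2%. Fold changes are UNKC over normal pancreas on the log2 scale with the standard error of the fit, and levels of a group are means with the SD of n = 2. The split depended on the scaling: with unscaled library totals it was 6741 higher and 1425 lower, and with upper-quartile factors 3039 higher and 3602 lower. Leaving out either UNKC replicate gave 0 calls by edgeR, since the spread then came from the 2 normal libraries alone (5255 and 5327 genes at an unadjusted p under 0.05 without UNKC replicate 1 or 2). DESeq2 still called 950 higher and 1570 lower without UNKC replicate 1 and 1015 and 1654 without UNKC replicate 2. A fit that also held the H7 tumours called 3285 and 2285, and 3855 and 2564. Directly against H7 tumours, in that fit of all libraries, 11.8% of the tested genes were higher and 7.31% lower in UNKC tumours. A low level in normal pancreas rests on few reads, and the plot of fold change against reads shows how the size needed for a call grew as reads fell.

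**Figure D1:**
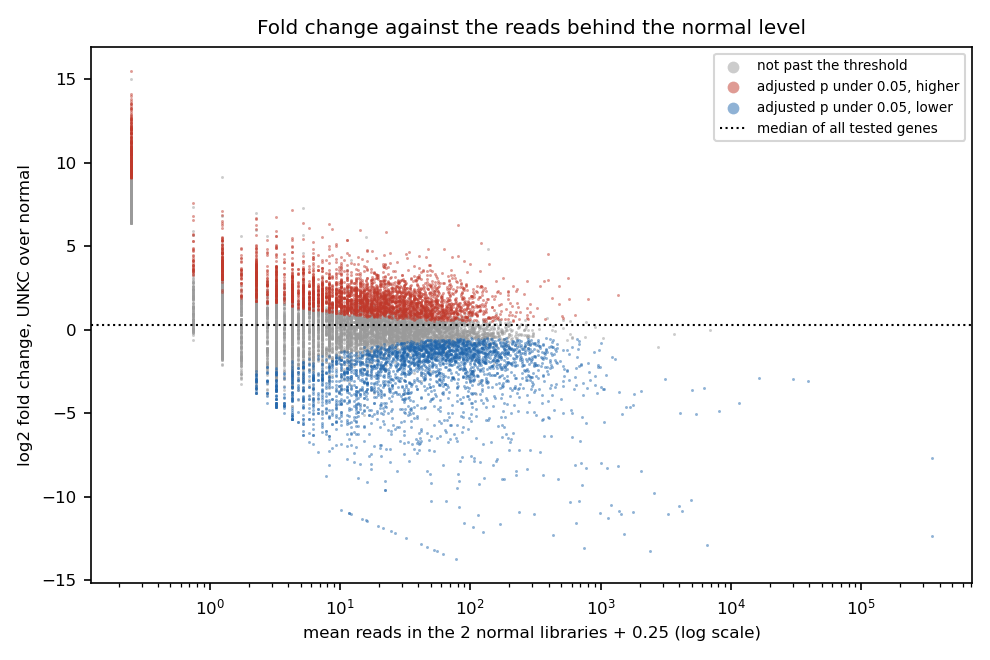
Log2 fold change of each tested gene (vertical axis) against its mean reads in the normal libraries plus 0.25 (horizontal axis, log scale), coloured by call. The column at the far left holds the 856 genes with no read in normal pancreas, and the dotted line is the median of all tested genes, 0.30.

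The acinar enzyme lists had the lowest medians of the 48 gene lists examined. All 15 tested genes of the 17 measured acinar proteases and proenzymes fell (median log2 fold change -10.97), as did all 9 tested of 10 lipases, amylases and ribonucleases (median -10.29). Read against the 19.3% of all tested genes that fell, every tested member of both lists was lower, with no overlap between groups. Pancreatic lipase (Pnlip), which digests dietary fat, had 7469 and 5498 CPM in normal pancreas and 0.974 and 0.74 in UNKC tumours (-12.88 ± 0.47, edgeR adjusted p = 0.0018). Elastase 1 (Cela1), a protease, had 4135 and 5628 CPM against 4.19 and 4.02 (-10.21 ± 0.37, edgeR adjusted p = 0.0018). Carboxypeptidase A1 (Cpa1) had 4234 and 4000.1 CPM against 3.58 and 0.878 (-10.85 ± 0.96, edgeR adjusted p = 0.0027). Both normal libraries lay far above both tumours for each enzyme. The 2 enzyme lists together took 2.85% ± 0.427 of the reads left in normal pancreas and 0.00476% ± 0.00262 in UNKC tumours, and the normal share was 5.49% ± 0.0933 with Lars2 and unnamed genes also set aside. In bulk tissue, fewer acinar cells and less RNA per acinar cell cannot be told apart.

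Among the 8 largest falls by the log2 fold change of the fit (named genes without overlap, at least 20 CPM), 4 were digestive enzyme genes. Chymotrypsin C (Ctrc), which helps activate and degrade trypsinogens, had 861 and 598 CPM in normal pancreas and 0 and 0.162 in UNKC tumours (-13.05 ± 1.04, edgeR adjusted p = 0.00228). The amylases Amy2b and Amy2a1, which digest starch, fell by 13.22 and 13.41 on the log2 scale, but amylase genes are near-identical copies and reads could be split between them. Amy2a1 had no UNKC read and was at least 888-fold lower, a bound set against a floor of 3 read pairs over the UNKC tumours. Also without a UNKC read were Crb1, a cell polarity protein, Tmed11, a secretory pathway carrier, Ces1e, a carboxylesterase, and the uncharacterised D930020B18Rik. They were at least 787-, 745-, 659- and 1102-fold lower. Having no UNKC read moves a gene up in that ranking, so the 8 need not be the largest falls. Rbpjl, outside the 8, had a mean of 1494 CPM in normal pancreas and 0.308 in UNKC tumours.

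Secretory and regulatory genes of the acinar cell fell with the enzymes. Of 13 zymogen granule and secretory genes 12 fell (median -7.98). Among them Cuzd1, a granule membrane protein, had 241 and 221 CPM in normal pancreas and 0.227 and 0 in UNKC tumours (-10.91 ± 1.05, edgeR adjusted p = 0.00319), and Serpini2, a pancreatic serpin, had 373 and 236 against 0.227 and 0.0462 (-11.06 ± 0.74, edgeR adjusted p = 0.00203). The water channel Aqp8 did not pass the threshold, with 2 and 0 reads in the normal libraries. All 7 acinar transcription factors fell (median -6.20). Rbpjl, the acinar partner in PTF1, had 1429 and 1559.7 CPM in normal pancreas and 0.408 and 0.208 in UNKC tumours (-12.22 ± 0.45, edgeR adjusted p = 0.0018). Bhlha15 (MIST1), which organises the secretory apparatus, had 126 and 84.1 against 0.521 and 0.37 CPM (-7.86 ± 0.38, edgeR adjusted p = 0.0018). The forkhead factor Foxp2, grouped with these factors, fell from 49.1 ± 5.09 to 0.598 ± 0.429 CPM (-6.35 ± 0.63, edgeR adjusted p = 0.00326). Ptf1a itself, named after its values were seen, rested on 4 and 6 normal reads and 6 and 0 UNKC reads (-6.05 ± 1.24, edgeR adjusted p = 0.0185, 95% counting interval of the log2 ratio -8.85 to -3.80). The 4 normal and UNKC values of each of these factors did not overlap.

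Since PTF1 binds a paired E-box and TC-box, the 250 bases before the start of each gene in RefSeq (GRCm38.p6) were searched on both strands for the letters CACCTG and TTTCCCA. Of the 30 acinar enzyme and secretory genes with a promoter entry, 17 (56.7%) held CACCTG and 7 (23.3%) held TTTCCCA, against 19.4% and 7.77% of all 27025 genes with an entry. Both stood in 4 of the 30 (13.3%), against 1.37% of all genes with an entry, at any distance from each other. A match is a description of letters and not a binding site, and matches of different motifs could overlap. Below are parts of 2 promoters that held both motifs, for carboxyl ester lipase (Cel) and elastase 2A (Cela2a), genes chosen after their values were seen, with matches on either strand in capitals. Each stops at the start site.
Cel, minus strand, chr2:28563404-28563583: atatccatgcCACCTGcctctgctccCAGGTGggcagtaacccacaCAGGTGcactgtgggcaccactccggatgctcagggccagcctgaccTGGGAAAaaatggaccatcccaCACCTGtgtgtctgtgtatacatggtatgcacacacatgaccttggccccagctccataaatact
Cela2a, minus strand, chr4:141826006-141826235: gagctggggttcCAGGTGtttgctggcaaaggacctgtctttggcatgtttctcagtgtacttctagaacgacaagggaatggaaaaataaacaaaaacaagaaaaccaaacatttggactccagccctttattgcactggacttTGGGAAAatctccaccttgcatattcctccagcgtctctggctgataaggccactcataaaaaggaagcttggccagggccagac
Cel had 2533 and 2535 CPM in normal pancreas against 4.87 and 0.902 in UNKC tumours (-9.77 ± 1.07, edgeR adjusted p = 0.00405). Cela2a had 3230.3 and 3253 against 2.67 and 0.462 CPM (-11.01 ± 1.12, edgeR adjusted p = 0.00349). The normal replicates of both genes were nearly equal, while UNKC replicate 1 was well above UNKC replicate 2.

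The Reg family encodes small secreted proteins that acinar cells make in injury and regeneration, and 3 of its 7 members fell (Reg1, Reg3a and Reg3d). Their sum was 432 and 369 CPM in normal pancreas and 53.3 and 12.3 in UNKC tumours, so UNKC replicate 1 again held more than UNKC replicate 2. Reg1 had 373 and 323 CPM in normal pancreas and 28.8 and 4.3 in UNKC tumours (-4.39 ± 0.97, edgeR adjusted p = 0.0231), and its call was lost without normal replicate 1 or 2. Reg3d had 21.5 and 22.8 against 0.159 and 0.139 CPM (-7.16 ± 0.43, edgeR adjusted p = 0.00195). Both genes were lower in each tumour than in each normal library.

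Islet transcripts, from the endocrine cells that make insulin and glucagon, were also lower. Of 8 measured islet hormones 7 were tested and 4 fell (Ins1, Ins2, Sst and Iapp). Insulin 2 (Ins2) had 603 and 257 CPM in normal pancreas and 20.8 and 10.4 in UNKC tumours (-4.79 ± 0.62, edgeR adjusted p = 0.00579). Glucagon (Gcg) had 163 and 67.3 against 23.4 and 4.25 CPM and did not pass the threshold (-3.06 ± 0.95, edgeR adjusted p = 0.0558), although it passed under 10 of 23 alternatives. Somatostatin (Sst) and amylin (Iapp) lost their calls under 6 of 22 and 8 of 23 alternatives. The hormone values did not overlap for these 5 genes.

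Of 12 islet granule and membrane genes 9 fell and 1, Ptprn, rose. Abcc8, the sulfonylurea receptor of the beta cell potassium channel, had 84.9 and 87.1 CPM in normal pancreas and 2.15 and 0.855 in UNKC tumours (-5.83 ± 0.54, edgeR adjusted p = 0.00288). Slc30a8, which loads zinc into insulin granules, had 45.9 and 26.7 against 0.408 and 0.0925 CPM (-7.15 ± 0.77, edgeR adjusted p = 0.00396). Ptprn, a dense-core granule membrane protein, had 5.86 and 13.9 CPM in normal pancreas and 100.4 and 42.3 in UNKC tumours (2.86 ± 0.63, edgeR adjusted p = 0.0224), with its call lost under 4 of 23 alternatives. Of 9 tested islet transcription factors 6 fell, among them Nkx2-2 (-6.26 ± 0.60) and Pax6 (-5.39 ± 0.86), and 2 rose. Among those that rose was Pdx1, an early pancreas and beta cell factor (9.76 and 7.92 against 19.9 and 20.9 CPM, 1.21 ± 0.28, edgeR adjusted p = 0.0261), whose call was lost under 8 of 23 alternatives.

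**Figure D2:**
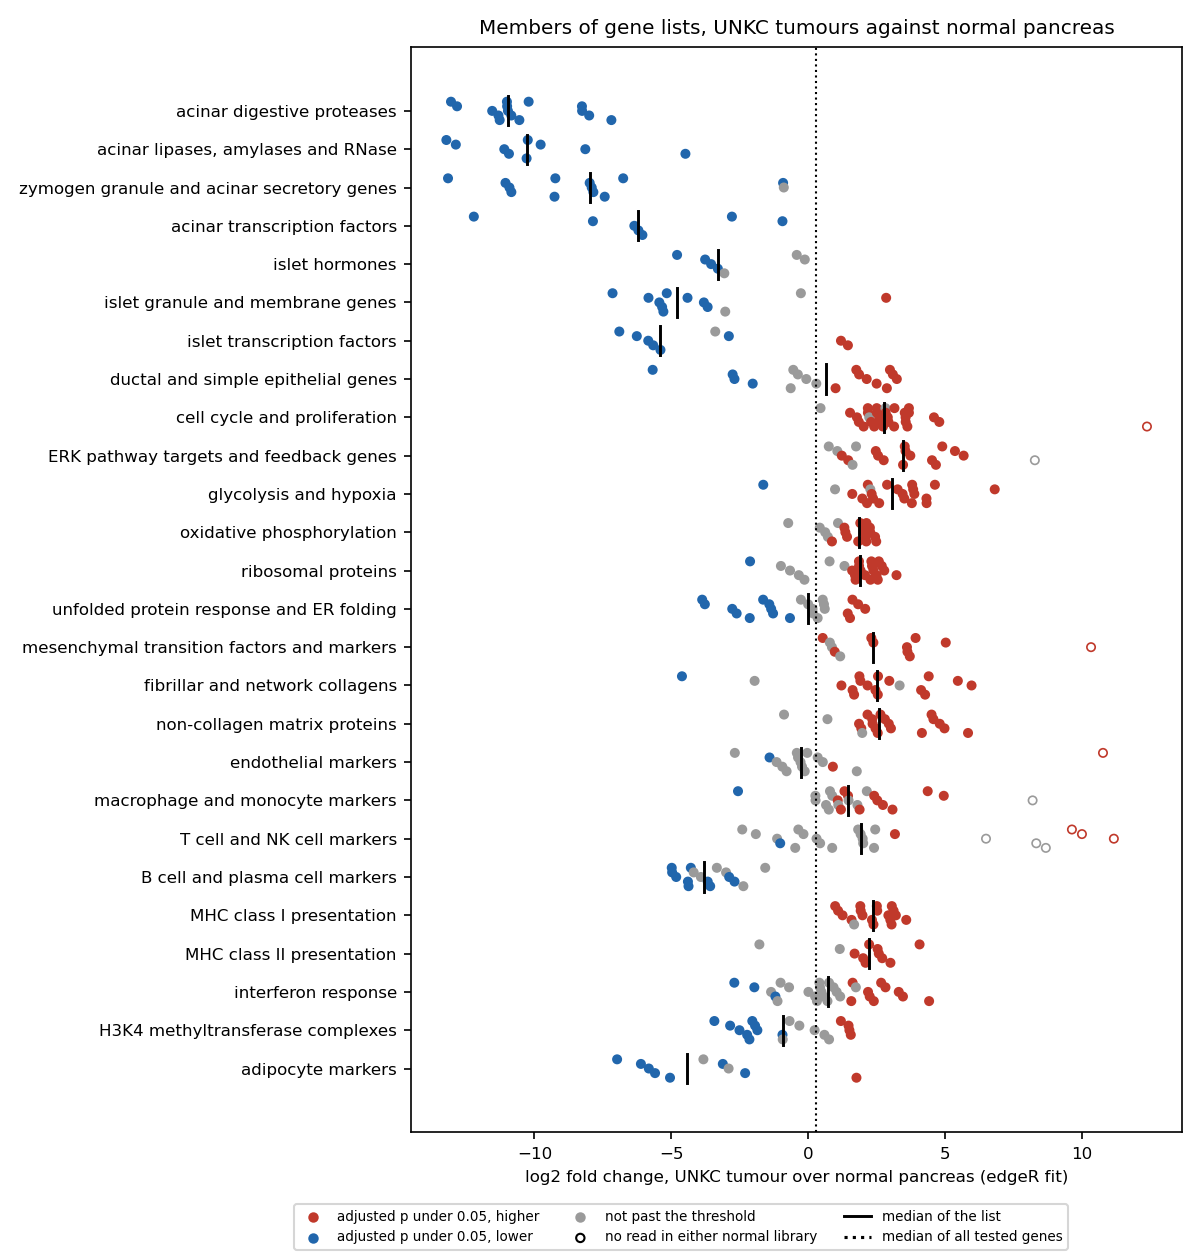
Log2 fold change, UNKC over normal pancreas, of the tested members of 26 gene lists (1 point per gene, coloured by call, open where no normal read was counted, with list medians as bars). The acinar members lie to the left of the dotted median of all tested genes, 0.30, and the matrix, cell cycle and antigen presentation medians lie to its right.

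Duct and simple epithelial genes split by gene. Of 18 such genes 9 rose, 4 fell (Onecut1, Tff2, Muc1 and Ocln) and 5 did not pass the threshold. Keratin 18 (Krt18), an intermediate filament of simple epithelia, had 61.5 and 86.1 CPM in normal pancreas and 777 and 624 in UNKC tumours (3.25 ± 0.25, edgeR adjusted p = 0.00224). Keratin 7 (Krt7), a duct keratin, had 19.5 and 13.9 against 158 and 108 CPM (edgeR adjusted p = 0.00352). Keratins 8 and 19 (Krt8 and Krt19) rose by 3.10 and 2.51 on the log2 scale. For all 4 keratins both tumours were above both normal libraries.

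The genes that fell in this list act in duct development and at the epithelial surface. Onecut1 (HNF6), a duct and endocrine precursor factor, had 90.8 and 46.5 CPM in normal pancreas and 1.74 and 0.925 in UNKC tumours (-5.68 ± 0.55, edgeR adjusted p = 0.00314). The trefoil peptide Tff2 had 91.8 and 131 against 16.1 and 16.9 CPM (-2.75 ± 0.24, edgeR adjusted p = 0.00257), and the surface mucin Muc1 had 112 and 72.2 against 21 and 7.58 CPM (-2.69 ± 0.58, edgeR adjusted p = 0.021). Occludin (Ocln), of tight junctions, fell by 2.02 on the log2 scale but lost its call under 8 of 23 alternatives. Epcam, an epithelial adhesion molecule, had 71.3 and 39.6 CPM in normal pancreas and 99.3 and 37.6 in UNKC tumours, so the groups overlapped (0.30 ± 0.56, edgeR adjusted p = 0.682). Of 12 squamous and basal genes 7 were tested and 2 rose, among them Lamb3 (1.90 ± 0.30), a laminin chain that helps to anchor epithelial cells to the basement membrane.

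The 8 largest rises by the log2 fold change of the fit had no read in either normal library, which raises a gene in that ranking. Their folds are lower bounds against 3 read pairs over the normal libraries (2.95 CPM). The ratio was larger for Timp1 (141) and Car9 (115), each with few normal reads, so the 8 need not be the largest rises. Hmga2, a chromatin protein of embryonic and tumour cells, had 265 and 237 CPM in UNKC tumours and was at least 85.3-fold higher (edgeR adjusted p = 0.00188). The receptor Tnfrsf12a, which binds TWEAK, had 105 and 95.3 CPM (at least 33.9-fold), and Hhip, which binds and holds back Hedgehog ligands, had 97.7 and 85.3 CPM (at least 31-fold). The others were Acsbg1, an acyl-CoA synthetase (86.8 and 72.9 CPM), Add2, a membrane skeleton protein (86.3 and 62.6 CPM), Slc5a7, a choline transporter (74.3 and 63.8 CPM), Il1rn, the interleukin 1 receptor antagonist (70.6 and 61.6 CPM), and Klhl1, a neuronal kelch protein (85.9 and 44.8 CPM). These 5 were at least 22.2- to 27.1-fold higher. All 8 were measured in both UNKC libraries, with Klhl1 the most unequal between them.

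**Figure D3:**
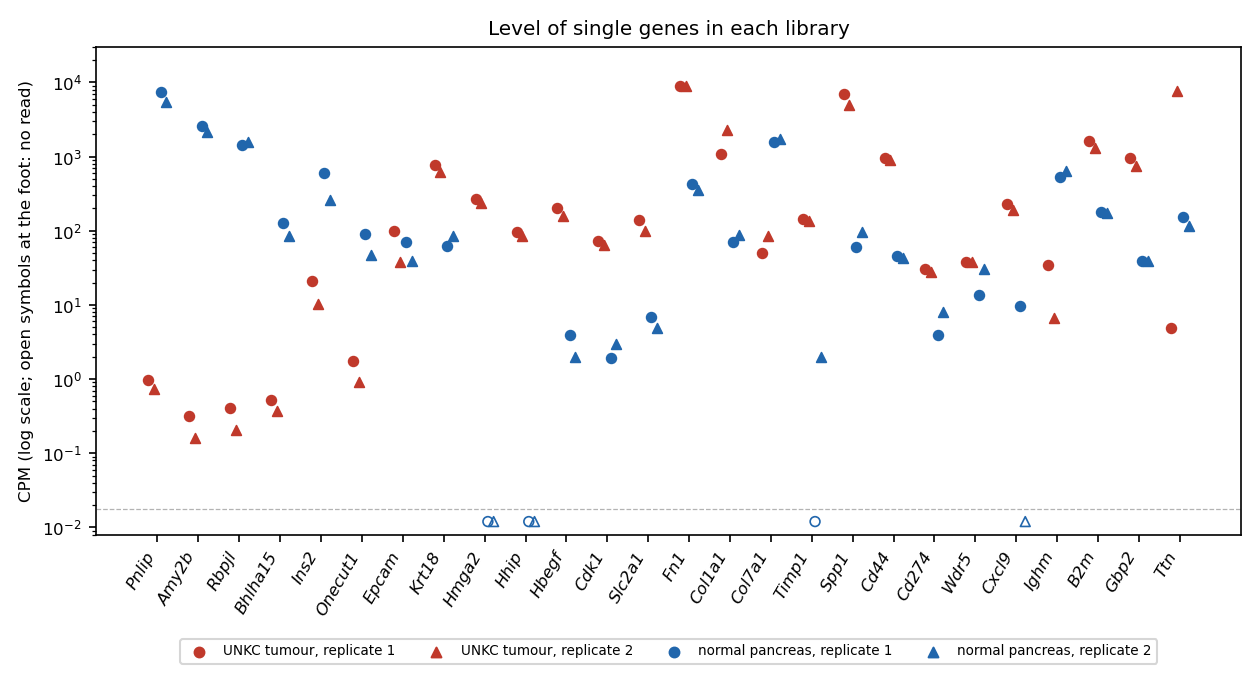
CPM (log scale) of 26 genes in each UNKC (red) and normal (blue) library, with replicate 1 as a circle, replicate 2 as a triangle and libraries without a read as open symbols at the foot. The acinar genes at the left are lower in both tumours, Hmga2 and Hhip have no normal read, Epcam overlaps between groups, and Ttn at the right differs between the UNKC replicates.

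Proliferation genes were higher in the tumours. Of 30 cell cycle genes 27 rose and none fell (median 2.79, against 25.5% higher and a median of 0.30 over all tested genes). Top2a, the topoisomerase that untangles chromosomes in mitosis, had 45.9 and 39.6 CPM in normal pancreas and 529 and 488 in UNKC tumours (3.57 ± 0.18, edgeR adjusted p = 0.0018). The mitotic kinase Cdk1 had 1.95 and 2.97 against 73.1 and 64.1 CPM (a ratio of 27.9, edgeR adjusted p = 0.00195), but its normal level was 2 and 3 reads (95% counting interval of the log2 ratio 3.12 to 7.39). Ube2c, the ubiquitin-conjugating enzyme of the anaphase complex, had 29.9 and 30.2 CPM in UNKC tumours and no normal read (at least 10.2-fold higher). The groups did not overlap for any of these genes. The checkpoint kinase Bub1 had unequal normal levels (0 and 15.8 CPM, against 39.7 and 34.8 in UNKC tumours) and did not pass (2.24 ± 1.02, edgeR adjusted p = 0.14). DESeq2 called 11 of the 30 higher with 1 or the other UNKC replicate left out.

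Promoters of cell cycle genes are known for CCAAT boxes, which bind the NF-Y factor. The letters CCAAT, on either strand, stood in 19 of the 25 cell cycle genes with a promoter entry (76.0%), against 37.5% of all genes with an entry. The stretch before the start of cyclin B1 (Ccnb1), which activates CDK1, shows 2 of them in capitals.
Ccnb1, minus strand, chr13:100786487-100786596: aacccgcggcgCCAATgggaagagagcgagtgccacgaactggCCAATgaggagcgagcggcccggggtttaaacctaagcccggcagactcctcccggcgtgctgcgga
Ccnb1 had 1.95 and 0 CPM in normal pancreas and 24.3 and 23.8 in UNKC tumours (4.61 ± 0.83, edgeR adjusted p = 0.00887, 95% counting interval of the log2 ratio 2.13 to 9.92).

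Brakes of the cell cycle and p53 targets did not move one way. Of 18 measured genes 17 were tested, 6 rose and 2 fell (Sesn1 and Mdm2). Cdkn1a (p21), which inhibits cyclin-dependent kinases, had 5.86 and 5.94 CPM in normal pancreas and 29.9 and 27 in UNKC tumours (2.27 ± 0.27, edgeR adjusted p = 0.00508). Phlda3, a p53 target that restrains AKT, had 0 and 3.96 against 50.4 and 52.2 CPM (4.70 ± 0.79, edgeR adjusted p = 0.00988, 95% counting interval of the log2 ratio 2.85 to 7.75). Sesn1, a stress sensor and p53 target, had 171 and 171 against 16.8 and 17.8 CPM (-3.30 ± 0.16, edgeR adjusted p = 0.0018), with no overlap. Mdm2, the ligase that degrades p53, fell by 0.72 on the log2 scale, but its call was lost under 8 of 23 alternatives and its direction turned with unscaled totals (0.21). Cdkn2a did not reach the read filter and was not tested.

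Genes that ERK signalling switches on were higher. Of 19 ERK targets and feedback genes 14 rose and none fell, with a median of 3.48, or 2.77 with genes without a normal read set at their bound. Etv4, a transcription factor induced by ERK, had 0 and 1.98 CPM in normal pancreas and 42.3 and 39.7 in UNKC tumours (5.37 ± 0.80, edgeR adjusted p = 0.00512, 95% counting interval of the log2 ratio 2.90 to 10.69). The ERK phosphatase Dusp5 had 0.976 and 0 against 27.9 and 23.4 CPM (5.69 ± 0.82, edgeR adjusted p = 0.00376, interval 2.23 to 10.01). The survival gene Ier3 had 1.95 and 3.96 against 96.1 and 81.5 CPM (4.91 ± 0.33, edgeR adjusted p = 0.00203, interval 3.37 to 7.19). None of the 3 overlapped between groups, but each rested on few normal reads. The immediate early gene Egr1 had 35.1 and 14.8 CPM in normal pancreas and 36.5 and 48.2 in UNKC tumours and did not pass (0.76 ± 0.43, edgeR adjusted p = 0.212).

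The EGF receptor family and its ligands moved in both directions. Of 12 ligands and receptors 11 were tested, 6 rose and 2 fell (Egf and Erbb4). Heparin-binding EGF (Hbegf) had 3.9 and 1.98 CPM in normal pancreas and 202 and 158 in UNKC tumours (5.93 ± 0.34, edgeR adjusted p = 0.00193, 95% counting interval of the log2 ratio 4.39 to 8.21). Betacellulin (Btc) had 3.9 and 5.94 against 82 and 52.6 CPM (3.77 ± 0.39, edgeR adjusted p = 0.00357), and epiregulin (Ereg) had 20.3 and 11.9 CPM in UNKC tumours and no normal read (at least 5.47-fold higher). Egf fell, from 58.6 and 22.8 CPM to 0.408 and 2.7 (-4.71 ± 1.07, edgeR adjusted p = 0.0245), but its call was lost without normal replicate 1 or 2. The receptor gene Erbb4 fell from 5.86 and 11.9 to 0.249 and 0.139 CPM (-5.47 ± 0.67, edgeR adjusted p = 0.00538).

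Of 16 genes altered in pancreatic cancers 15 were tested, 9 rose and 3 fell (Myc, Rnf43 and Arid1a). Hras, a GTPase that signals to the ERK kinases, had 5.86 and 1.98 CPM in normal pancreas and 37.4 and 33.2 in UNKC tumours (3.17 ± 0.44, edgeR adjusted p = 0.00697). The TGF-beta receptor genes Tgfbr1 and Tgfbr2 rose by 2.27 and 2.26 on the log2 scale. Myc, a growth factor-induced transcription factor, had 146 and 141 CPM in normal pancreas and 30.2 and 32.5 in UNKC tumours (-2.20 ± 0.16, edgeR adjusted p = 0.00211). Every one of these genes separated the groups, and Myc was the one that was lower in the tumours. Rnf43, which removes WNT receptors, fell by 1.87 on the log2 scale and lost its call under 8 of 23 alternatives. Arid1a, of the SWI/SNF complex, fell by 0.74, and its direction turned with unscaled totals (0.22). Gata6, a factor of the classical tumour subtype, had 30.3 and 11.9 CPM in normal pancreas and 47.9 and 51.2 in UNKC tumours and did not pass (edgeR adjusted p = 0.0769).

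Glycolysis and hypoxia genes were higher: of 22 genes 19 rose and 1, Vegfa, fell (median 3.08). The glucose transporter Slc2a1 (GLUT1) had 6.83 and 4.95 CPM in normal pancreas and 139 and 99.6 in UNKC tumours (4.34 ± 0.31, edgeR adjusted p = 0.00214). The oxygen sensor Egln3 had 3.9 and 3.96 against 111 and 85.3 CPM (4.64 ± 0.27, edgeR adjusted p = 0.00195). The acid-handling carbonic anhydrase Car9 had 0.976 and 0 against 67 and 45.8 CPM (6.83 ± 0.80, edgeR adjusted p = 0.00229, 95% counting interval of the log2 ratio 3.37 to 11.15). Each of the 3 was lower in both normal libraries. Vegfa, the vascular growth factor, went the other way, with 757 and 537 CPM in normal pancreas and 234 and 183 in UNKC tumours (-1.64 ± 0.25, edgeR adjusted p = 0.00858), and lost its call under 2 of 23 alternatives. Bnip3, a hypoxia-induced mitophagy gene, did not pass (2.28 ± 0.69, edgeR adjusted p = 0.0519) but passed under 11 of 23 alternatives.

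The hypoxia factor HIF binds a core of ACGTG. Its letters stood on either strand in 14 of 21 glycolysis and hypoxia genes with a promoter entry (66.7%). The share was 18.5% of all genes with an entry and 24.0% of the tested ones. It was 41.7% (5 of 12) among ERK targets. The last 60 bases before the start sites of Slc2a1 and Car9 each show 1 match in capitals.
Slc2a1, plus strand, chr4:119108685-119108744: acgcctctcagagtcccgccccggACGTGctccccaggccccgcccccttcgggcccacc
Car9, plus strand, chr4:43506966-43507025: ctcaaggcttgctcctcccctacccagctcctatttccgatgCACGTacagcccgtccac

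Most nuclear genes of oxidative phosphorylation and of ribosomal proteins rose, how many did so depended on a trend with gene length, and messages of the mitochondrial genome fell. Of 20 nuclear genes of oxidative phosphorylation, which makes ATP in mitochondria, 15 rose and none fell (median 1.87), such as Cox6c of cytochrome oxidase (7.81 and 7.92 CPM in normal pancreas, 41.4 and 44.7 in UNKC tumours, 2.45 ± 0.23) and Atp5o of ATP synthase (2.49 ± 0.21). Among 24 genes of ribosomal proteins 17 rose and 1 fell, Rpl5 (median 1.89). Ribosomal protein genes have near-identical pseudogenes, which makes single values uncertain. The mitochondrial genome encodes a few subunits of the same respiratory complexes, and its messages took 0.732% and 0.786% of the reads left in UNKC tumours and 4.79% and 4.46% in normal pancreas. Among them COX1 of cytochrome oxidase had 30943 and 27888 CPM in normal pancreas and 3769 and 3766 in UNKC tumours (-2.96 ± 0.43, edgeR adjusted p = 0.00755), and CYTB, ND1 and ND2 fell by 4.38, 3.51 and 5.07 on the log2 scale. Over all genes the median log2 fold change was 0.97 in the shortest of 5 equal length groups (30 to 1546 bases) and -0.18 in the longest. With the trend on length removed, 8 of 20 and 9 of 24 rose, and 1 of each list fell. What gave rise to the length trend was not tested.

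The acinar cell is rich in endoplasmic reticulum, and genes of its folding and stress pathways split. Of 23 genes 5 rose (Calr, Pdia3, Pdia6, Pdia4 and Canx), 10 fell and 8 did not pass. Herpud1, which takes part in degrading misfolded proteins, had 873 and 962 CPM in normal pancreas and 62.3 and 72.1 in UNKC tumours (-3.77 ± 0.18, edgeR adjusted p = 0.0018). Sel1l, an adaptor of the same degradation pathway, had 1971 and 1601 against 118 and 126 CPM (-3.87 ± 0.21, edgeR adjusted p = 0.00186), and the stress sensor kinase Eif2ak3 (PERK) fell by 2.77 on the log2 scale. The 5 that rose are folding helpers of the lumen and membrane, such as calnexin (Canx, 179.6 and 202 CPM in normal pancreas and 872 and 753 in UNKC tumours, 2.09 ± 0.18, edgeR adjusted p = 0.00245). The chaperone Hspa5 (BiP) had 441 and 579 against 783 and 745 CPM and did not pass (edgeR adjusted p = 0.0703). The list's median of 0.01 turned with the scaling (-0.11 with DESeq2 size factors, -0.30 with upper-quartile factors), and unscaled totals gave 11 higher and 5 lower.

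Genes of the extracellular matrix were higher. Of 18 collagen genes 15 rose and 1, Col7a1, fell (median 2.51), and of 20 other matrix genes 17 rose and none fell (median 2.60). Collagen I (Col1a1), the main fibrillar collagen, had 70.3 and 87.1 CPM in normal pancreas and 1090.3 and 2263 in UNKC tumours (4.41 ± 0.45, edgeR adjusted p = 0.00351). Col12a1, which sits on fibril surfaces, had 13.7 and 13.9 against 652 and 1085 CPM (5.98 ± 0.36, edgeR adjusted p = 0.00195). In UNKC replicate 2, which held the muscle transcripts, both were higher than in UNKC replicate 1, and both tumours were above both normal libraries. Fibronectin (Fn1) had 429 and 352 CPM in normal pancreas and 9066 and 8813 in UNKC tumours (4.52 ± 0.30, edgeR adjusted p = 0.00203). Tenascin C (Tnc), a matrix protein of wounds, had 17.6 and 26.7 against 1027 and 1529 CPM (5.85 ± 0.37, edgeR adjusted p = 0.00195). Lysyl oxidase (Lox), which crosslinks collagen, had 0 and 5.94 against 72 and 116 CPM (4.99 ± 0.88, edgeR adjusted p = 0.012, 95% counting interval of the log2 ratio 3.44 to 7.27).

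Col7a1, the anchoring fibril collagen, went the other way from the 15 that rose: 1581 and 1704 CPM in normal pancreas and 49.7 and 85 in UNKC tumours (-4.61 ± 0.35, edgeR adjusted p = 0.0022). Col10a1, which rested on 2 and 8 normal reads, did not pass (-1.95, edgeR adjusted p = 0.0969). Decorin (Dcn), which coats collagen fibrils, had 209 and 337 against 134 and 164 CPM and did not pass (edgeR adjusted p = 0.0605). Mesenchymal transition genes rose in 10 of 13 and fell in none, among them vimentin (Vim, 96.6 and 177 against 2129.9 and 2053 CPM, 3.93 ± 0.36) and S100a4 (7.81 and 9.9 against 276 and 305 CPM, 5.04 ± 0.21), which are also expressed by fibroblasts and leukocytes.

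Most matrix metalloproteinases did not pass the test, while most protease inhibitors and plasminogen genes were higher. Of 13 matrix metalloproteinases 5 rose (Mmp2, Mmp3, Mmp12, Mmp13 and Mmp14), none fell and 8 did not pass, beside 25.5% of all tested genes higher and 19.3% lower. Of 9 tested protease inhibitors and plasminogen genes (11 measured) 8 rose and none fell (median 3.72). Mmp14, which sits in the membrane and activates Mmp2, had 16.6 and 19.8 CPM in normal pancreas and 349.6 and 364 in UNKC tumours (4.29 ± 0.18, edgeR adjusted p = 0.0018). The macrophage elastase Mmp12 had 48.6 and 30.8 CPM in UNKC tumours and no normal read (at least 13.5-fold higher). Timp1, an inhibitor of these enzymes, had 0 and 1.98 CPM in normal pancreas and 143 and 134 in UNKC tumours (7.13 ± 0.75, edgeR adjusted p = 0.00233, 95% counting interval of the log2 ratio 4.66 to 12.44). None of these 3 overlapped between groups. The plasminogen activator Plat rose by 4.99 and its inhibitor Serpine2 by 4.23 on the log2 scale. Mmp7, made by epithelial cells, differed between UNKC replicates (51.6 and 14 CPM) and did not pass (edgeR adjusted p = 0.115).

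The AP-1 factor binds TGANTCA, in which N is any base. These letters stood in 5 of 10 metalloproteinase genes with a promoter entry (50.0%), against 7.82% of all genes with an entry, and in 1 of 12 ERK targets and 6 of 24 interferon-induced genes. The last 60 bases before stromelysin 1 (Mmp3) show the match in capitals.
Mmp3, plus strand, chr9:7445762-7445821: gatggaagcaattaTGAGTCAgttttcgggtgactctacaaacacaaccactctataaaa
Mmp3 had 0 and 1.98 CPM in normal pancreas and 11.8 and 11 in UNKC tumours (3.52 ± 0.92, edgeR adjusted p = 0.0269, 95% counting interval of the log2 ratio 1.05 to 8.84), and its call was lost under 8 of 23 alternatives.

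Few fibroblast or endothelial markers passed the test. Of 18 fibroblast and myofibroblast markers 5 rose (Tagln, Acta2, Ly6c1, Thy1 and Lrrc15), 1 fell (Clec3b) and 7 overlapped between groups, beside 25.5% of all tested genes higher and 19.3% lower. Upper-quartile factors left 1 higher, the length trend removed 2, and unscaled totals gave 9. The calls of Tagln, Ly6c1, Lrrc15 and Thy1 were lost under 14 of 23, 12 of 23, 11 of 22 and 4 of 23 alternatives. The summed level was 332 and 466 CPM in normal pancreas and 479 and 672 in UNKC tumours. Acta2, the smooth muscle actin of myofibroblasts, had 15.6 and 23.8 CPM in normal pancreas and 43.5 and 77.8 in UNKC tumours (1.62 ± 0.40, edgeR adjusted p = 0.0301), with its call lost under 9 of 23 alternatives. Without UNKC replicate 2, in the fit with H7 tumours, 1 marker rose and 2 fell. Of 16 endothelial markers 2 rose (Flt1 and Cldn5), 1 fell (Egfl7) and 8 overlapped, with a sum of 429.5 and 546 CPM in normal pancreas and 431 and 513 in UNKC tumours. The endothelial adhesion molecule Pecam1 had 59.5 and 77.2 against 39.5 and 63.5 CPM (-0.41 ± 0.30, edgeR adjusted p = 0.316). The direction of the endothelial median, -0.25, turned with unscaled totals (0.69).

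**Figure D4:**
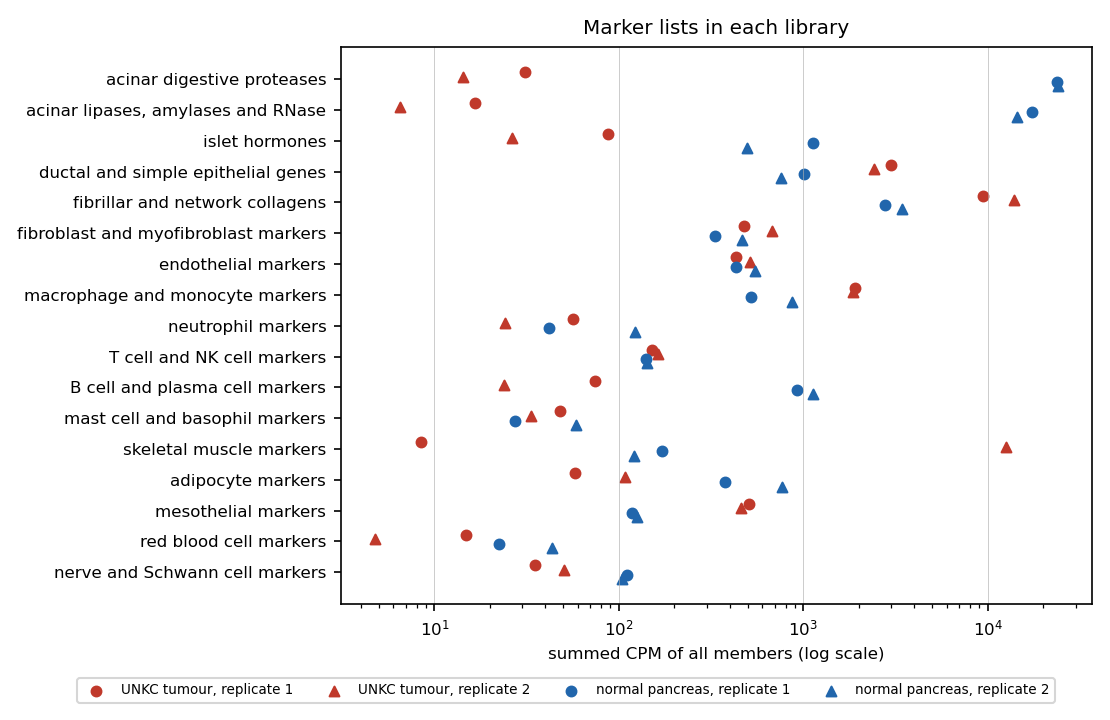
Summed CPM of all measured members of 17 marker lists (log scale) in each UNKC (red) and normal (blue) library, with replicate 1 as a circle and replicate 2 as a triangle. Acinar, islet and B cell sums are lower in both tumours, collagen and macrophage sums are higher, endothelial and T cell sums lie close together, and the muscle sum is high in UNKC replicate 2 alone.

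About as many macrophage genes rose as did not pass the test. Of 23 macrophage and monocyte markers 11 rose, against 25.5% of all tested genes, 11 did not pass and 1, Cd163, fell, with 4 that overlapped between groups. Their sum was 523 and 872 CPM in normal pancreas and 1905 and 1862 in UNKC tumours. The complement gene C1qc had 9.76 and 21.8 CPM in normal pancreas and 119 and 91.4 in UNKC tumours (2.74 ± 0.40, edgeR adjusted p = 0.00792), and arginase 1 (Arg1), which depletes arginine, had 9.76 and 1.98 against 98.9 and 146 CPM (4.38 ± 0.60, edgeR adjusted p = 0.00689). The endotoxin co-receptor Cd14 had 1.95 and 3.96 against 98.3 and 86.2 CPM (4.96 ± 0.33, edgeR adjusted p = 0.00197, 95% counting interval of the log2 ratio 3.42 to 7.25). Cd163, the haemoglobin scavenger receptor of resident macrophages, had 44.9 and 36.6 CPM in normal pancreas and 5.3 and 8.53 in UNKC tumours (-2.56 ± 0.34, edgeR adjusted p = 0.00636). These 4 separated the groups, whereas the integrin Itgam overlapped (17.6 and 49.5 against 41.8 and 64.1 CPM). With the length trend removed or with upper-quartile factors 7 of the 23 rose, and DESeq2 called 4 higher with 1 or the other UNKC replicate left out.

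B cell genes fell, while T cell genes mostly did not pass the test. Of 16 tested B cell and plasma cell genes (18 measured) 10 fell and none rose (median -3.79). Immunoglobulin mu (Ighm) had 526 and 631 CPM in normal pancreas and 34.3 and 6.73 in UNKC tumours (-4.82 ± 0.87, edgeR adjusted p = 0.0134), and the surface antigen Ms4a1 (CD20) had 28.3 and 42.6 against 1.77 and 0.462 CPM (-4.98 ± 0.76, edgeR adjusted p = 0.00877). Both were lower in each tumour, and lowest in UNKC replicate 2. Of 23 tested T and NK cell genes (24 measured) 4 rose (Cd8a, Cd3d, Prf1 and Gzmb) and 1, Ikzf2, fell. Over all tested genes 25.5% were higher and 19.3% lower. The T and NK cell sums were 139.6 and 142 CPM in normal pancreas and 151 and 163 in UNKC tumours. Cd8a, the co-receptor of cytotoxic T cells, had 1.95 and 1.98 against 14.9 and 20.8 CPM (3.18 ± 0.44, edgeR adjusted p = 0.00617, 95% counting interval of the log2 ratio 1.32 to 6.23). The killer protease Gzmb had 10.6 and 15.3 CPM in UNKC tumours and no normal read (at least 4.4-fold higher). Without UNKC replicate 2, in the fit with H7 tumours, 1 T and NK cell gene rose and 1 fell, and with unscaled totals 11 rose and none fell.

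Of 11 tested neutrophil genes (14 measured) 1 rose (Il1r2) and 2 fell (Cd177 and Camp), with sums of 42 and 122 CPM in normal pancreas and 56.3 and 24.1 in UNKC tumours, which overlap. Of 10 tested dendritic cell genes 3 rose (Irf8, Fscn1 and Itgax) and 1 fell (Zbtb46, 27.3 and 48.5 CPM in normal pancreas and 3.08 and 3.49 in UNKC tumours, -3.53 ± 0.38). Of 8 tested mast cell and basophil genes 2 rose (Mcpt4 and Mcpt8) and 2 fell (Kit and Hdc), while none passed with the replicate block. Over all tested genes 25.5% were higher and 19.3% lower, and nothing is read from the counts of these 3 lists. The calls of Irf8, Mcpt8, Il1r2 and Kit were lost under 15 of 23, 11 of 22, 7 of 20 and 7 of 23 alternatives.

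Chemokines that draw T cells and monocytes were among the genes without normal reads. Of 21 tested chemokines outside the neutrophil group (23 measured) 11 rose and none fell, and 8 had no normal read. Cxcl9, an interferon-induced ligand of CXCR3 on T cells, had 9.76 and 0 CPM in normal pancreas and 229.9 and 188 in UNKC tumours (5.41 ± 0.92, edgeR adjusted p = 0.0115). The monocyte chemokine Ccl8 had 41.6 and 30.8 CPM and the T cell chemokine Ccl5 15.9 and 16.7 CPM in UNKC tumours, without a normal read (at least 12.3- and 5.53-fold higher). The B cell chemokine Cxcl13 had 59.5 and 22.8 CPM in normal pancreas and 8.15 and 1.71 in UNKC tumours and did not pass (-3.06 ± 0.92, edgeR adjusted p = 0.0521), though it passed under 14 of 23 alternatives. A list of neutrophil chemokines, growth factors and other cytokines had 13 tested members, of which 4 rose (Csf1, Il1b, Lif and Il1rn). The chemokine Ppbp fell. Over all tested genes 25.5% were higher and 19.3% lower. None of the 4 that rose is a chemokine, and the neutrophil chemokine Cxcl5 did not pass (edgeR adjusted p = 0.182). Interleukin 1 beta (Il1b) had 4.88 and 0.99 against 25.4 and 20.9 CPM (2.97 ± 0.57, edgeR adjusted p = 0.0153, 95% counting interval of the log2 ratio 1.42 to 5.25). Csf1, the macrophage growth factor, lost its call under 14 of 23 alternatives.

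Antigen presentation genes were higher nearly throughout. Of 19 class I pathway genes 18 rose (median 2.39), with H2-M3 just short of the threshold (edgeR adjusted p = 0.0504), and of 11 class II genes 9 rose (median 2.23). B2m, the light chain of class I, had 178 and 174 CPM in normal pancreas and 1629 and 1314 in UNKC tumours (3.06 ± 0.20, edgeR adjusted p = 0.00201). The peptide transporter Tap1 had 17.6 and 19.8 against 187 and 139.9 CPM (3.13 ± 0.23, edgeR adjusted p = 0.0022). The class II chain H2-Ab1 had 84.9 and 51.5 against 496 and 399 CPM (2.71 ± 0.30, edgeR adjusted p = 0.0042), and H2-DMb1, which loads class II peptides, 3.9 and 2.97 against 58.6 and 57.8 (4.08 ± 0.26). Each of these 4 separated the groups. The heavy and light chains are made by many cell types, and class II mainly by leukocytes, whose macrophage markers rose as well. What part macrophages had in the class II rise was not tested.

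Interferon-induced genes did not all follow. Of 30 genes 10 rose and 3 fell (Mx2, Oas2 and Stat2), and 11 overlapped between groups, beside 25.5% of all tested genes higher, 19.3% lower, and 46.0% and 31.2% without overlap above and below. With unscaled totals 17 rose and none fell, and without normal replicate 2 it was 13 and none. Gbp2, a guanylate-binding protein induced by interferon gamma, had 39 and 39.6 CPM in normal pancreas and 947 and 745 in UNKC tumours (4.43 ± 0.21, edgeR adjusted p = 0.0018). Oas2, an antiviral RNA sensor, went down, from 22.5 and 26.7 to 8.38 and 4.23 CPM (-1.96 ± 0.45, edgeR adjusted p = 0.0251), with its call lost under 5 of 23 alternatives. Mx2 and Stat2 fell by 2.69 and 1.19 on the log2 scale and lost their calls under 8 of 22 and 9 of 23 alternatives. A match to the interferon response element, on either strand, stood in 13 of 24 of these genes with a promoter entry (54.2%), against 3.46% of all genes with an entry. The last 80 bases before Gbp2 show the match, on the opposite strand, in capitals.
Gbp2, plus strand, chr3:142620583-142620662: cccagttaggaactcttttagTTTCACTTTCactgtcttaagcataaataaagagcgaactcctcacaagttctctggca

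The study axis was taken here as Wdr5, Spp1 and Cd274 with the receptor genes Cd44 and Pdcd1. Of these 5 genes 4 rose and Wdr5 did not pass. Osteopontin (Spp1), a secreted glycoprotein that binds CD44 and integrins, had 60.5 and 97 CPM in normal pancreas and 6959 and 4977 in UNKC tumours (6.24 ± 0.43, edgeR adjusted p = 0.00203). Per gene length, Spp1 stood at 14323 and 10645 TPM in UNKC tumours, behind only the noncoding Rn7sk, Rpph1 and Rmrp in its mean level, against 68.8 and 162 TPM in normal pancreas. Its receptor Cd44 had 45.9 and 43.5 CPM in normal pancreas and 949 and 892 in UNKC tumours (4.36 ± 0.17, edgeR adjusted p = 0.0018). Cd274 (PD-L1), the ligand that restrains T cells, had 3.9 and 7.92 against 30.7 and 27.5 CPM (2.30 ± 0.37, edgeR adjusted p = 0.01). All 3 genes separated the groups. Pdcd1 (PD-1), the receptor of Cd274, had 5.94 and 4.62 CPM in UNKC tumours and no normal read, which gives a fold of at least 1.79 (edgeR adjusted p = 0.03), and its call was lost under 5 of 20 alternatives. Wdr5 had 13.7 and 30.7 CPM in normal pancreas and 37.6 and 38 in UNKC tumours (0.77 ± 0.39, edgeR adjusted p = 0.173). The authors' deposited table gives log2 fold changes of 6.09 for Spp1, 4.17 for Cd44, 1.94 for Cd274, 2.16 for Pdcd1 and 0.61 for Wdr5.

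Several osteopontin receptors and checkpoint genes also rose. Of 11 osteopontin receptors 7 rose and 1, Itga4, fell. The integrin chains Itgav and Itgb5, which pair to bind osteopontin, had 49.8 and 45.5 and 17.6 and 19.8 CPM in normal pancreas against 498 and 432 and 192 and 171 in UNKC tumours (3.29 ± 0.18 and 3.28 ± 0.18). Itga4, an integrin chain of leukocytes, fell by 0.89 on the log2 scale, a direction that turned with unscaled totals (0.067). Of 28 checkpoint ligands and receptors 12 rose and none fell, beside 25.5% of all tested genes higher and 19.3% lower. Of the 28, 7 overlapped between groups and 6 had no normal read. The list median was 1.26, or 0.82 with genes without a normal read set at their bound. Cd276 (B7-H3) had 3.9 and 0 CPM in normal pancreas and 61.3 and 57.4 in UNKC tumours (4.91 ± 0.78, edgeR adjusted p = 0.00854, 95% counting interval of the log2 ratio 3.06 to 7.96). The co-stimulatory receptor Tnfrsf9 (4-1BB) had 24.8 and 20.7 CPM in UNKC tumours and no normal read (at least 7.72-fold higher), and Havcr2 (TIM-3) had 1.95 and 0 against 20.0 and 14.7 CPM (4.14 ± 0.90, edgeR adjusted p = 0.0152). DESeq2 called 3 of the 28 higher with 1 or the other UNKC replicate left out.

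Subunits of the enzymes that methylate lysine 4 of histone H3 moved in both directions. Of 19 subunits 9 fell and 4 rose (Hcfc1, Dpy30, Wdr82 and Ash2l), beside 19.3% of all tested genes lower and 25.5% higher. The median was -0.92, a direction that turned with unscaled totals (0.12). Kmt2d, a catalytic subunit active at enhancers, had 773 and 820.4 CPM in normal pancreas and 121 and 159 in UNKC tumours (-2.51 ± 0.20, edgeR adjusted p = 0.00236), and the catalytic Setd1b had 192 and 149 against 14.6 and 17.2 CPM (-3.42 ± 0.22, edgeR adjusted p = 0.00197). Cxxc1, which brings SETD1 enzymes to CpG islands, had 283 and 243 against 34.9 and 38.3 CPM (-2.85 ± 0.17, edgeR adjusted p = 0.00195). All 3 were lower in both tumours. Ash2l and Dpy30, partners of WDR5 in the core complex, had 61.9 and 57.1 and 25.3 and 21.5 CPM in UNKC tumours against 28.3 and 11.9 and 5.86 and 10.9 in normal pancreas (1.56 ± 0.41 and 1.48 ± 0.36). Their calls were lost under 7 of 23 and 9 of 23 alternatives. With the length trend removed 1 of the 19 rose and 8 fell, and with unscaled totals 7 rose and 7 fell. Of 6 demethylases of the same mark 1 rose (Kdm1a, 0.90 ± 0.18) and 2 fell (Kdm1b, -1.39 ± 0.24, and Kdm5c, -0.59 ± 0.14), and the direction of Kdm5c turned with unscaled totals (0.37). The calls of Kdm1a, Kdm1b and Kdm5c were lost under 6 of 23, 3 of 23 and 7 of 21 alternatives, and nothing is read from the counts of these demethylases.

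Transcripts of other tissues differed between groups and replicates. Of 12 skeletal muscle markers 6 were tested and none passed in edgeR without a replicate block (5 rose with the block and 1 with unscaled totals), although their sum was 8.43 and 12463 CPM in UNKC replicates 1 and 2 and 171 and 121 in the normal libraries. The muscle actin Acta1 had 0.453 and 1512 CPM in UNKC tumours (7.27 ± 3.53, edgeR adjusted p = 0.159), and DESeq2 called 5 members higher. Of 10 adipocyte markers 7 fell and 1, Pparg, rose. Perilipin (Plin1), which coats fat droplets, had 20.5 and 34.6 CPM in normal pancreas and 0.204 and 0.763 in UNKC tumours (-5.82 ± 0.77, edgeR adjusted p = 0.00617), and Adipoq had 35.1 and 81.1 against 0.0906 and 2.31. Both genes were lower in both tumours. Pparg, a nuclear receptor of fat cells, had 3.9 and 9.9 CPM in normal pancreas and 27.5 and 19.6 in UNKC tumours (1.77 ± 0.48, edgeR adjusted p = 0.0389), with its call lost under 10 of 23 alternatives. Of 7 mesothelial markers 2 rose (Msln and Krt19) and 4 fell (Upk1b, Upk3b, Lrrn4 and Wt1), but with unscaled totals 2 rose and none fell. The calls of Upk1b, Upk3b, Lrrn4 and Wt1 were lost under 8 of 22, 4 of 22, 6 of 22 and 12 of 23 alternatives. Mesothelin (Msln), a surface protein also found on pancreatic carcinoma cells, had 1.95 and 5.94 CPM in normal pancreas and 153 and 173 in UNKC tumours (5.37 ± 0.41, edgeR adjusted p = 0.00222). Of 5 tested nerve markers 2 fell (Scn7a, -2.59 ± 0.46, and Mbp, -0.98 ± 0.27), of 3 tested liver and intestine markers 1 rose (Lgr5, 4.09 ± 0.84) and 1 fell (Ttr, -2.72 ± 0.50), and of 3 tested red cell markers none passed.

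On a length scale Rn7sk, Rpph1, Rmrp and COX1 were among the 10 most abundant RNAs of both groups, and the others of the 10 differed. COX1 had a mean of 8484 TPM in UNKC tumours and 43933 in normal pancreas. Besides Spp1 and small noncoding RNAs, the most abundant transcripts of UNKC tumours included the secreted chaperone clusterin (Clu, 9036 and 7732 TPM against 96.7 and 223 in normal pancreas), the cytoskeletal actin Actb (8753 and 8593 TPM) and the membrane-binding annexin Anxa2 (4452 and 4481 TPM). Clu had 92.7 and 145 CPM in normal pancreas and 4787 and 3942 in UNKC tumours (5.20 ± 0.36, edgeR adjusted p = 0.00203). In normal pancreas noncoding, mitochondrial and Lars2 reads led, among them the nuclear RNA Malat1 with 13670.2 and 10511 TPM against 2051 and 2550.4 in UNKC tumours. Lars2, a mitochondrial tRNA synthetase gene, had 669076 and 10308 CPM in normal pancreas and 72.4 and 56.2 in UNKC tumours, and its call was lost under 5 of 22 alternatives, among them the fit without normal replicate 2, with a log2 fold change between -13.35 and -7.33 over all 22.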

How the data were processed

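Per the submitters' processing notes, the authors used STAR, featureCounts and DESeq2 1.18.1 with the mm10 genome build. The deposited raw counts per gene ID (27179 IDs) were used; both mates of a pair were counted, so reads are not independent fragments. The authors' deposited table of this comparison, with its fragment counts, TPM, log2 fold changes, p-values and gene lengths, served for 16286 gene names, lengths and the values credited to it. RefSeq named 9355 further IDs and 1538 stayed unnamed. The authors' table called 3595 genes higher and 3535 lower; of these, 3283 and 2788 were called the same way here and 1 the opposite way. Library strand is not given in the sources used here, so reads of overlapping antisense genes cannot be told apart.

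The 37 ribosomal RNA genes were set aside. Genes passing filterByExpr (15453) were scaled by TMM (factors 1.38, 1.41, 0.623 and 0.825) and tested with the edgeR 4.0.16 quasi-likelihood model (R 4.3.3, Benjamini-Hochberg, threshold 0.05) on the 4 libraries. CPM use the effective library size, TPM here the genes left after ribosomal RNA. The filter keeps genes with reads in 1 group alone, and counts over tested members are no support for a list. Folds against a group without reads are bounds at 3 read pairs (6 reads) over the group, 2.95 CPM in normal pancreas and 0.0686 in UNKC tumours. With up to 3 pairs the exact (Clopper-Pearson) binomial 95% interval is given, with reads halved to pairs and a single read taken as 1 pair. Bounds and intervals cover counting error only. With 2 libraries against 2 an exact permutation test cannot go below p = 0.333, so none is given.

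Members and lists (48) were chosen with earlier results of these data known. Named genes are the study axis and the 8 largest changes each way by the log2 fold change of the fit (no overlap, at least 20 CPM). They further include up to 3 rises and 3 falls per list (at least 10 CPM) and up to 2 members per list not past the threshold. The 10 most abundant per group and members behind counts of 5 or fewer complete them. Cela1, Cpa1, Cel, Cela2a, Ptf1a, Top2a, Fn1, Adipoq, Xist, Kdm5d and Ddx3y were named after their values were seen. Some genes that meet the rule are not reported here. There were 20 alternatives, and 5 more were chosen after seeing the data (fits without 1 UNKC replicate by DESeq2 or with H7 tumours, and muscle genes taken out). They covered scaling, filters, DESeq2 1.42.0, voom in limma 3.58.1, thinning, halved and fragment counts, a loess length correction, a replicate block and left-out libraries. Calls lost are counted over up to 23 alternatives, apart from the edgeR fits without a UNKC replicate. Tables and figures were made in Python 3.11.15 (SciPy 1.17.1, pandas 2.3.3, matplotlib 3.10.9). The pipeline was tested on simulated data.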

Additional observations from a re-analysis of the deposited data

Results flagged for a closer look

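The genes of the study axis and the 16 largest changes by the fit, 21 in all, were also compared directly between UNKC and H7 tumours. This was done since both tumour lines share the normal libraries. In the fit over all 6 libraries 11 of the 21 differed (11.8% of all tested genes were higher and 7.31% lower in UNKC tumours). Since 16 of the 21 were chosen as the largest changes in these same UNKC libraries, nothing is read from that count. All 11 values are log2 differences, UNKC minus H7, with standard errors. UNKC tumours were higher in Spp1 by 1.45 ± 0.28 (edgeR adjusted p = 0.0195) and in Cd44 by 1.35 ± 0.13 (edgeR adjusted p = 0.00203). They were higher in Hmga2 by 8.13 ± 0.33 (edgeR adjusted p = 0.000588), in Hhip by 9.32 ± 0.26 (edgeR adjusted p = 0.000296) and in Acsbg1 by 2.79 ± 0.18 (edgeR adjusted p = 0.00142). Add2 differed by 6.79 ± 0.28 (edgeR adjusted p = 0.000594), Slc5a7 by 11.86 ± 0.60 (edgeR adjusted p = 0.00034) and Klhl1 by 10.97 ± 0.82 (edgeR adjusted p = 0.000774). Il1rn differed by 0.72 ± 0.15 (edgeR adjusted p = 0.0343). Of the 4 enzyme genes, 2 were lower in UNKC than in H7 tumours, with differences of -1.49 ± 0.31 (edgeR adjusted p = 0.0243) for Amy2b and -1.71 ± 0.26 (edgeR adjusted p = 0.00868) for Pnlip, while Ctrc and Amy2a1 did not pass (edgeR adjusted p = 0.872 and 0.244). Leaving out H7 replicate 1 or 2 left 7 of the 21 past the threshold in each case. Groups of 2 libraries are too small for a test of single outlying samples.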

How the results depend on the processing

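Against 3940 genes higher and 2987 lower, unscaled library totals gave 6741 and 1425 and moved the median of all genes by 0.95, and glmTreat against a 2-fold change gave 2021 and 1635. Single libraries left out gave 0 to 5529 higher and 0 to 3470 lower by edgeR, with 0 without UNKC replicate 1 or 2. DESeq2 without UNKC replicate 1 gave 950 and 1570, and without UNKC replicate 2 it gave 1015 and 1654. The 28 lists with more members higher and 16 with more lower both became 0 without UNKC replicate 1 or 2, since no gene was called, and lay at 24 to 30 and 14 to 18 in the other fits with a library left out. Other scalings, filters and tests stayed within 1.5 times: 3039 higher and 3602 lower with upper-quartile factors (shift of the median -0.31), 3608 and 3212 with DESeq2 size factors (-0.12), 4190 and 3765 by DESeq2, 3710 and 2615 without a filter (0.67 against 0.30 for the median), 2909 and 2894 with tumours thinned to normal depth, and 3083 and 2723 with the length trend removed. The acinar enzyme share of normal reads was 5.49% with Lars2 and unnamed genes set aside, and the number of genes that differed from H7 tumours was 7 without H7 replicate 1 or 2 and up to 11 with other libraries left out. Same-numbered replicates did not deviate together (r = -0.03 across genes) and the labels do not say that they pair; a replicate block gave 3004 higher and 2333 lower. Directions turned for genes near no change: with unscaled totals Aqp8 (0.11), Mdm2 (0.21), Arid1a (0.22), Dcn (0.027), Pecam1 (0.52), Itga4 (0.067), Kdm5c (0.37) and Mbp (0.015), and with upper-quartile factors and the length trend removed Epcam (-0.011 and -0.0065). Epcam also turned in fits without UNKC replicate 1 (-0.74, -0.52 with H7 tumours and -0.82 by DESeq2) and without normal replicate 2 (-0.07, against 0.78 without normal replicate 1), and Aqp8 without normal replicate 1 (6.99, against -1.86 without normal replicate 2) and, with H7 tumours, without UNKC replicate 1 (0.026). Ttn turned without UNKC replicate 2 (-4.97, against 5.64 without UNKC replicate 1; -4.73 with H7 tumours and -5.05 by DESeq2), as did Acta1 (-3.38 with H7 tumours). Apart from the muscle genes, whose reads lay in UNKC replicate 2, the cause was not tested. Levels in normal pancreas rest on a median of 12 and 13 reads per tested gene; what part this depth had in the number of calls was not tested.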

Other observations

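Sex-linked transcripts, which the labels do not speak to, differed between the groups and between the UNKC replicates. Xist, the RNA that coats the inactive X chromosome, had 2095 and 1898 CPM in normal pancreas and 151 and 165 in UNKC tumours (-3.66 ± 0.19, edgeR adjusted p = 0.0018). The Y-linked helicase Ddx3y had 0 and 1.98 CPM in normal pancreas and 33.7 and 4.44 in UNKC tumours, and the Y-linked demethylase Kdm5d had 0 and 0 reads in normal pancreas and 406 and 52 in UNKC tumours. Neither Y-linked gene passed the threshold (edgeR adjusted p = 0.0908 and 0.246). What part the sex of the mice or of the line had in other differences was not tested.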
